A study of Mus musculus with 3 samples.

Results

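The 10 genes described here are the CD3 subunits of the T cell receptor complex (Cd3e, Cd3d, Cd3g), the T cell surface proteins Cd5, Cd6 and Cd28, the surface proteins Cd2 and Thy1, which mouse NK cells (NKC) also make, and the recombinase genes Rag1 and Rag2. They were taken by name from 22350 protein-coding genes of the mouse mm9 annotation. Each gene was examined over its window, that is the gene body with 20 kb on either side. The windows of all 10 held 17 of the 15524 Runx3-bound regions (called peaks here) and 43 of the 49902 H3K4me1-marked regions that the study deposited for resting NKC.

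The chromatin came from freshly isolated, resting splenic NKC of ICR mice, with no genotype change or treatment given in the labels. Runx3 was precipitated from 1 sample, H3K4me1 (monomethylation of lysine 4 of histone H3) from 1 and 1 was incubated with non-immune rabbit serum (NIS), the control against which regions were called. The labels describe an NKp46+ sort, whereas the study's methods describe a DX5+ sort, and the age of the mice was not given. By the study's methods the regions were called on the joined reads of biological repeats, whereas the labels give 1 sample per antibody. The deposited lists hold coordinates only. The number of reads at a region is therefore unknown, the NIS signal cannot be set beside it, and with 1 list per antibody there is no spread between replicates and no test.

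CD3 epsilon, delta and gamma pair with each other and with the zeta chain (Cd247) to carry the signal of the T cell receptor across the membrane. The CD3 genes lie side by side, and their transcription in T cells depends in part on enhancers near their 3′ ends. Runx3 is a Runt-domain transcription factor of cytotoxic lymphocytes. H3K4me1 marks enhancers and the flanks of active promoters. Neither a peak nor the mark shows that a gene is transcribed, and expression was not measured in these samples. The paper measured expression in resting NKC with microarrays, which are not used here.

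Of the 10 genes, 8 had a Runx3 peak in the window, against 51.0% of all protein-coding genes (95% Wilson interval 50.4 to 51.7%, counting error only). Rag1 and Rag2 had 0. An H3K4me1 region lay in the window of 10 of 10 genes, against 74.0% of all genes. Cd2 and Cd28 each had 5 peaks, a number that 4.08% of genes reached or passed. With windows set by protein-coding transcripts only, Cd28 had 4 and Cd2 still 5. Thy1 had 3 peaks, the CD3 genes had 2 each, and Cd5 and Cd6 had 1 each. A peak in the gene body itself was found for 4 genes (Cd2, Cd28, Cd3d and Cd6), or 4 of 10 against 33.6% of all genes. A peak within 1 kb of the start was found only for Cd2 and Cd28, or 2 of 10 against 25.9%. H3K4me1 covered the start of 7 genes against 34.4% of all genes. The exceptions were Cd3e, Rag1 and Rag2. The start is the 5′ end of the annotated protein-coding transcripts.

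**Figure D1:**
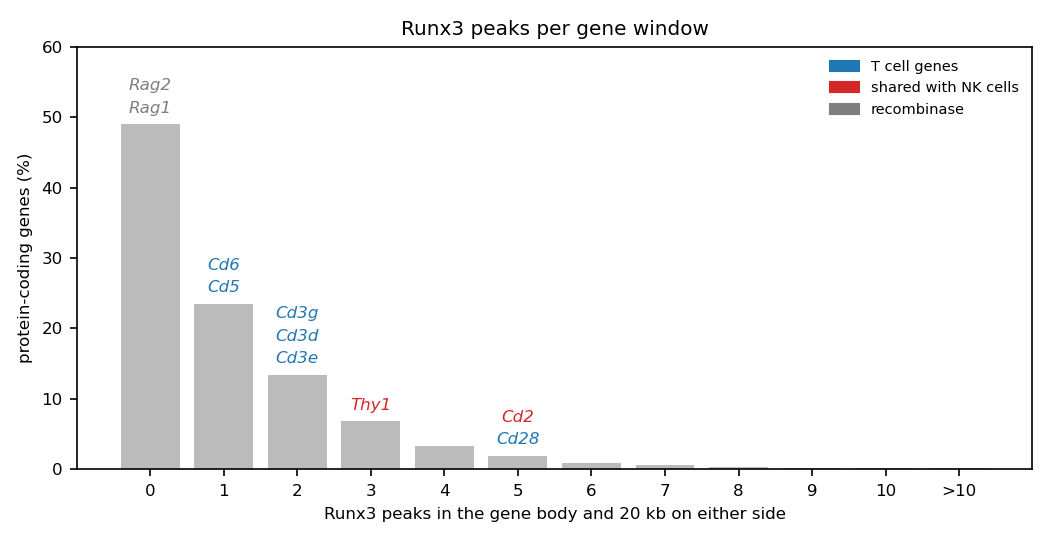
Share of all 22350 protein-coding genes (bars, in percent) by the number of Runx3 peaks in the gene body and 20 kb on either side, with the names of the 10 genes above the bar for their own number of peaks. Rag1 and Rag2 stand over 0 and Cd28 and Cd2 over 5.

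The CD3 genes shared the same 2 Runx3 peaks, since their windows overlap. Cd3g (chr9:44777655-44788514, minus strand) and Cd3d (chr9:44789876-44795135, plus strand) are transcribed away from each other from starts 1362 bp apart. Cd3e (chr9:44806826-44817673, minus strand) lies beyond the 3′ end of Cd3d and points towards it, with its start 27.8 kb from that of Cd3d. One H3K4me1 region of 6.01 kb (chr9:44785522-44791531) covered the starts of both Cd3g and Cd3d, and it held 0 Runx3 peaks. Both peaks lay instead at 3′ ends. The first (chr9:44794161-44795296, 1136 bp) lay across the end of Cd3d, over coding and UTR exon, intron and flank, with its midpoint 4.85 kb from the Cd3d start. The second (chr9:44805980-44806809, 830 bp) lay in intergenic sequence directly past the 3′ end of Cd3e, 11.3 kb from the Cd3e start, inside an H3K4me1 region of 2.03 kb (chr9:44805285-44807317).

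The midpoint of the Cd3d peak fell in a gap of 145 bp (chr9:44794618-44794762) between an H3K4me1 region of 2.83 kb and one of 1.82 kb, both of which the peak overlapped. It was 1 of only 2 among the 17 peaks whose midpoint lay outside H3K4me1. The Cd3e start carried no H3K4me1 region, and the nearest one, a 919 bp region in the first part of the gene (chr9:44816150-44817068), ended 605 bp away. H3K4me1 covered 92.4% of the Cd3d body, 43% of the Cd3g body and 13% of the Cd3e body. Within this cluster the mark thus covered most of Cd3d and little of Cd3e. Of the whole windows it covered 44.7% for Cd3d, 43.4% for Cd3g and 27.3% for Cd3e, values that 3.05%, 3.37% and 11.9% of all genes reached or passed.

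The centres of both CD3 peaks are shown because they held more RUNX consensus matches than the centre of any other of the 17 peaks, 3 each within 100 bp of the midpoint. Sequences here and below are the plus strand of mm9, with capitals marking matches to the RUNX consensus (TGTGGT or TGTGGC or TGCGGT or TGCGGC, searched on either strand, so that on the plus strand a match can also read ACCACA or GCCACA or ACCGCA or GCCGCA). The Cd3d centre lies in a UTR, so a site of 30 bases with 2 of its 3 matches is printed.
Cd3d, 3′ end of the gene, chr9:44794759-44794788: ACCACAgcccaaagcaggcTGTGGTgttta
Cd3e, past the 3′ end, chr9:44806294-44806493: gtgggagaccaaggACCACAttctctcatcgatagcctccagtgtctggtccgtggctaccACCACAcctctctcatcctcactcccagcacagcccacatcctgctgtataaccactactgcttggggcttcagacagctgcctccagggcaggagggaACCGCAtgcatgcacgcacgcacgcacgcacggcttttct

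Cd28 encodes the costimulatory receptor that acts together with the T cell receptor and binds Cd80 and Cd86. Its annotation (chr1:60773644-60830203, plus strand) includes a non-coding transcript that starts 29.6 kb upstream of the coding start at position 60803202, so its gene body is longer than the coding gene. Of the 5 peaks in the window, 1 (chr1:60802737-60803712, 976 bp) lay over the coding start, with its midpoint 0.022 kb (22 bp) from it. Another (chr1:60800841-60801762) lay 1.9 kb upstream, in an intron of the non-coding transcript. In the intron after the coding start lay 2 more, at 9.48 kb (chr1:60812176-60813193) and 12 kb (chr1:60814831-60815652). The fifth lay 43.5 kb upstream (chr1:60759224-60760123) in intergenic sequence, and was in the window only because the non-coding transcript extends the gene body. All 5 were closer to the Cd28 start than to any other coding start.

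An H3K4me1 region of 11.5 kb (chr1:60799827-60811349) ran across the Cd28 start to 8.15 kb downstream of it and held 2 of the peaks. A region of 8.69 kb (chr1:60811413-60820106) followed and held the 2 intronic ones. They were as wide as or wider than 98.5% and 97.3% of all H3K4me1 regions. In all, 8 regions covered 33.3% of the Cd28 window, a value that 7.44% of genes reached or passed. Cd28 was thus the 1 gene of the T cell group with Runx3 and H3K4me1 over its start. Its relatives in the same chromosome region differed in their counts. The window of Icos, another costimulatory receptor, held 1 peak, which was within 1 kb of its start, and that of the inhibitory receptor Ctla4 held 0.

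The 78 bases directly before the annotated Cd28 coding start are shown, since they are part of the promoter peak and lie outside the UTR.
Cd28, before the coding start, chr1:60803124-60803201: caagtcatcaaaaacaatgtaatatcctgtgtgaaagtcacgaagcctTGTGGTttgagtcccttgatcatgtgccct

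Cd5 and Cd6 are related scavenger receptor family proteins that modulate T cell receptor signals, and Cd6 binds Alcam. Their bodies are 50.4 kb apart on chromosome 19, both on the minus strand, and they shared no peak. Cd5 (chr19:10792633-10813464) had a single peak (chr19:10772735-10773470, 736 bp), which lay 40.4 kb from its start in an intron of the neighbouring gene Vps37c. The Vps37c start was closer, at 9.8 kb. H3K4me1 covered 2.67% of the Cd5 body, in a region of 1035 bp over the start (chr19:10812909-10813943). Of the 6 regions in the Cd5 window, this was the only one for which the Cd5 start was the nearest coding start. Cd5 therefore had a marked start but no peak of its own by nearness. Cd6 (chr19:10863831-10904548) had 1 peak in an intron, 14.1 kb from the start (chr19:10890086-10890768, 683 bp). It was the narrowest of the 17 and lay inside an H3K4me1 region of 2.26 kb. A further region of 1146 bp covered the Cd6 start (chr19:10903807-10904952). H3K4me1 covered 21.5% of the Cd5 window and 9.77% of the Cd6 window, values reached or passed by 18.5% and 42.8% of all genes.

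The centre of the Cd6 peak is shown as an example with no RUNX match, which says only that these letters are not in this window. The whole peak held 2 matches.
Cd6, intron, chr19:10890327-10890526: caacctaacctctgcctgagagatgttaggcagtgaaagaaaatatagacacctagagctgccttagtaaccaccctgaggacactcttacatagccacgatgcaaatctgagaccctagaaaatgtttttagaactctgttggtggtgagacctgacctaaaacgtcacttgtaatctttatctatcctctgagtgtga

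Cd2, an adhesion and costimulatory receptor of T cells and NKC whose mouse ligand is Cd48, had the largest share of its window under H3K4me1 of the 10 genes. It lies on chr3:101079822-101091862 (minus strand). H3K4me1 covered 64.3% of the window and 90.1% of the body, and 0.474% of all genes had as much of the window covered or more. A region of 14.4 kb (chr3:101076026-101090467), as wide as or wider than 99.2% of all regions, ran over most of the body and past the 3′ end. A region of 11.5 kb (chr3:101091655-101103175) covered the start and the sequence upstream. Between them was a gap of 1187 bp (chr3:101090468-101091654) directly after the start.

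The 5 Cd2 peaks spanned the locus from upstream to past the 3′ end. The most upstream (chr3:101099417-101101711) lay 8.7 kb before the start and was 2295 bp wide, wider than any other of the 17 and as wide as or wider than 99.8% of all Runx3 peaks. The second (chr3:101091457-101092478) lay across the start, its midpoint 0.105 kb upstream. The third (chr3:101090126-101090939) lay 1.33 kb into the gene, and its midpoint was in the gap between the H3K4me1 regions. The fourth (chr3:101081507-101082289) was intronic, 9.96 kb from the start. The last (chr3:101078374-101079352) was intergenic and lay past the 3′ end, 13 kb from the start. Like Cd3d and Cd3e, Cd2 thus had a peak at its 3′ end, and unlike them it also had one at its start.

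The centres of the Cd2 peaks at the start, upstream and past the 3′ end are shown.
Cd2, start, chr3:101091867-101092066: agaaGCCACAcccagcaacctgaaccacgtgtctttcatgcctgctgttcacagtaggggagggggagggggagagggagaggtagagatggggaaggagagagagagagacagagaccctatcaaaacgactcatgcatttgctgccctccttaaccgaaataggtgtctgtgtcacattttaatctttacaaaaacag
Cd2, upstream, chr3:101100464-101100663: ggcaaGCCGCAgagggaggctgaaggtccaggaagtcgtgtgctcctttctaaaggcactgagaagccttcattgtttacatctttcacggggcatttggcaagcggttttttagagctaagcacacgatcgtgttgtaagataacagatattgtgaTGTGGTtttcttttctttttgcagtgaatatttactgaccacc
Cd2, past the 3′ end, chr3:101078763-101078962: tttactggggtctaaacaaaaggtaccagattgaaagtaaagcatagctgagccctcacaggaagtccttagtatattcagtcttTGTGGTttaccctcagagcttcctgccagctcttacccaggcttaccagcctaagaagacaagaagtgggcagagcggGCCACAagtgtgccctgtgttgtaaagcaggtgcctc

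Thy1, a small glycosylphosphatidylinositol-anchored surface protein of T cells and of many mouse NKC, lies on chr9:43851467-43856662 (plus strand). A single H3K4me1 region of 6.49 kb (chr9:43850245-43856735) covered 100% of its body, and this region held 0 Runx3 peaks. The 2 peaks closest to Thy1 were upstream, at 12.1 kb (chr9:43839049-43839772) and 9.28 kb (chr9:43841829-43842555) from the start, both inside an H3K4me1 region of 8.41 kb (chr9:43836295-43844708). The third peak (chr9:43874796-43875499) was 23.7 kb downstream, at the start of another gene, Usp2, whose start was 43 bp from its midpoint. H3K4me1 covered 50.5% of the Thy1 window, a share that 1.82% of genes reached or passed. The Thy1 body was therefore marked over its whole length while its peaks lay outside it. The centre of the peak farther upstream is shown, since it held 2 RUNX matches.
Thy1, upstream, chr9:43839310-43839509: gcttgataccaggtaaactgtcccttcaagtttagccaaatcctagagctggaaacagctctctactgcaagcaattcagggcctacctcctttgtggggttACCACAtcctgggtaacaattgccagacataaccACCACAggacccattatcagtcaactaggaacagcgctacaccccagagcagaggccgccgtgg

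Rag1 and Rag2 encode the recombinase that rearranges antigen receptor genes in T and B cell precursors. They are neighbours on chromosome 2 (chr2:101478439-101489658, minus strand, and chr2:101464875-101472685, plus strand), with bodies 5.75 kb apart, and the end of each points towards the other. No Runx3 peak lay in either window, and the nearest one (chr2:101595885-101596874) was 107 kb from the Rag1 start and 132 kb from the Rag2 start, with Traf6 the nearest coding start to it at 77.8 kb. A list of called regions gives no level for places it does not list, so binding below the calling threshold cannot be read. H3K4me1 was present in 5 regions between 1002 and 2319 bp wide. None was over a start, the nearest lying 2.77 kb from the Rag1 start and 2.14 kb from the Rag2 start. The mark covered 0% of the Rag1 body and 29.7% of the Rag2 body. Over the windows it covered 11.2% and 13.8%, within the quartiles over all genes (0 to 17.3%, median 7.38%). B230118H07Rik, a gene whose start lies 31 bp from that of Rag1, spans the whole bodies of both Rag1 and Rag2, so the marks in Rag2 also lie in B230118H07Rik.

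**Figure D2:**
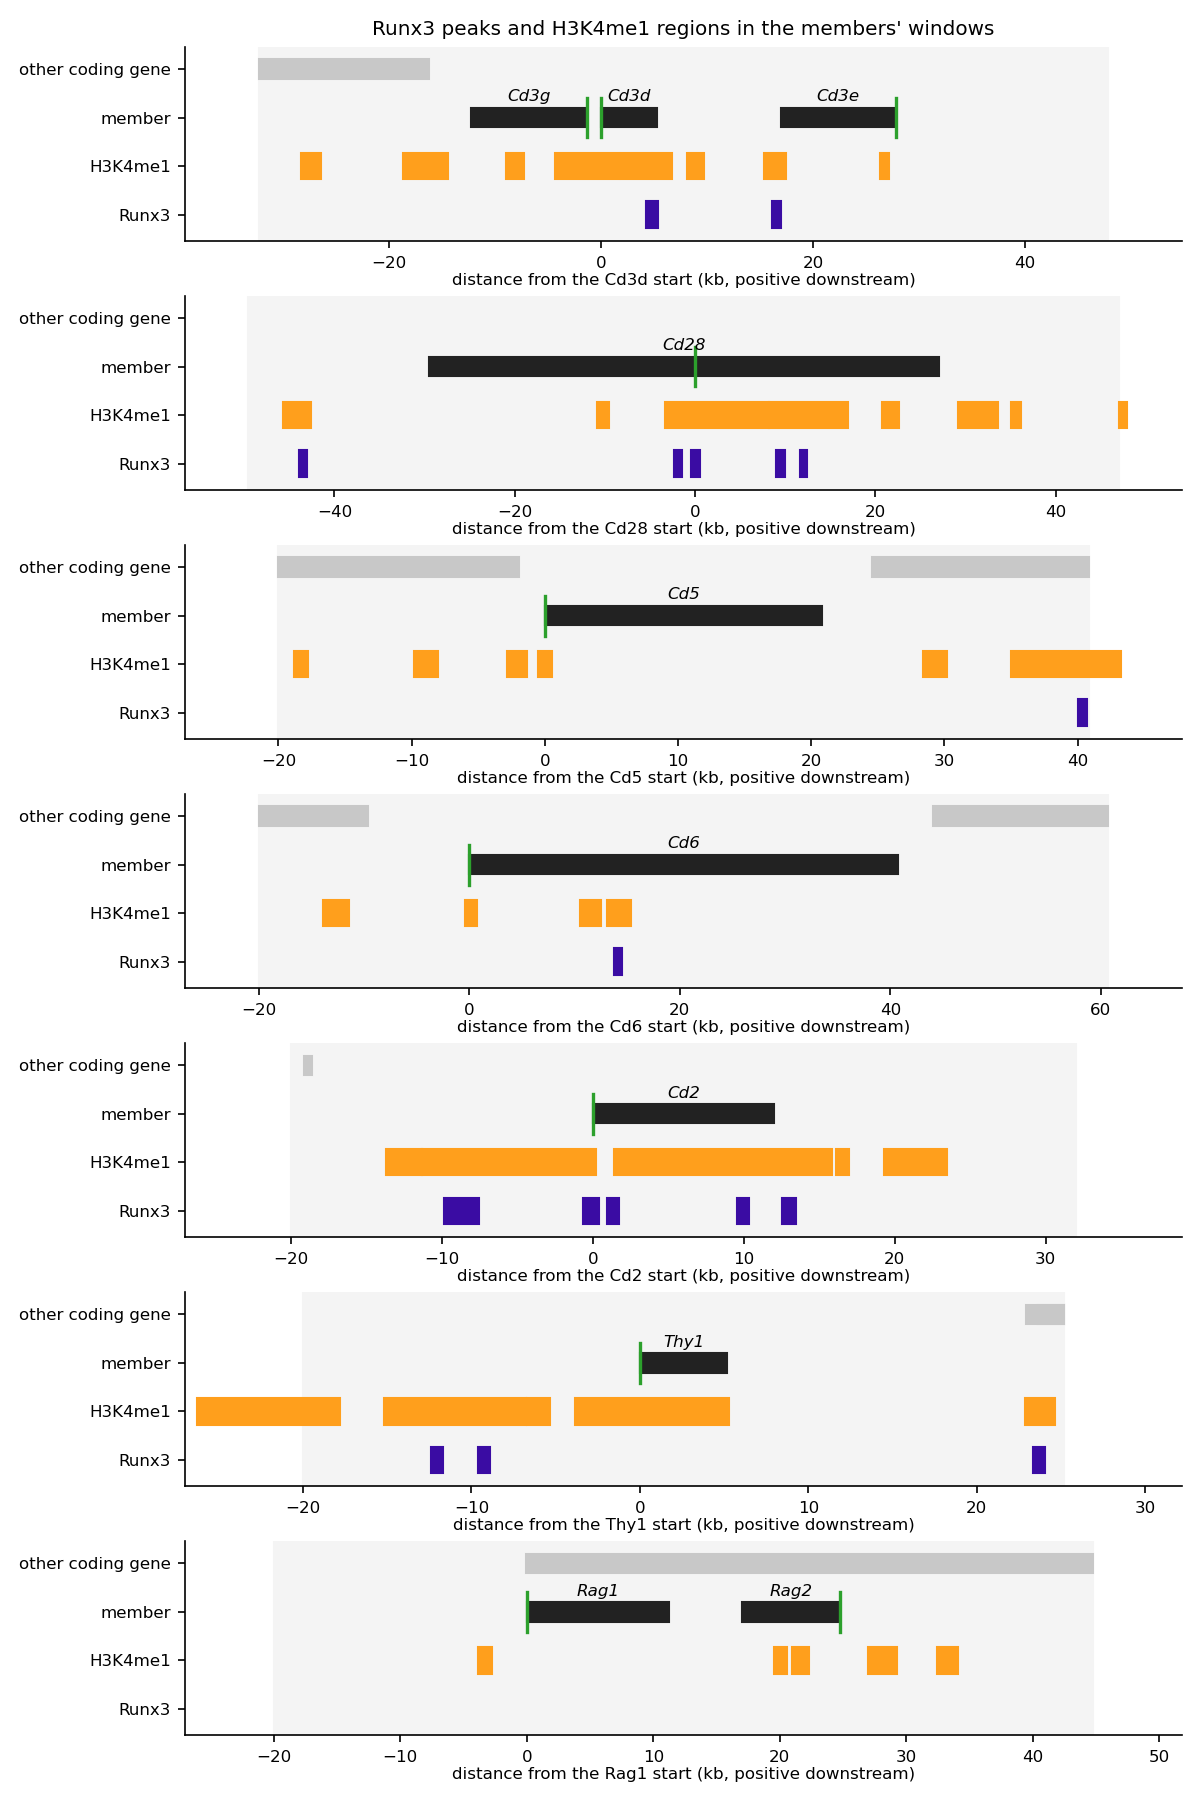
Maps of the 7 separate windows, each with the distance from the start of a named gene on the horizontal axis (kb, positive in the direction of transcription). Black boxes are the gene bodies of the 10 genes with a green line at the coding start (the Cd28 body includes its non-coding transcript), light grey boxes other coding genes, orange boxes H3K4me1 regions and violet boxes Runx3 peaks; the shaded area is the window. Peaks at 3′ ends are seen for Cd3d, Cd3e and Cd2, and none in the Rag windows.

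Set side by side by group, the 2 genes shared with NKC had 8 peaks in 97.2 kb of window, or 8.23 per 100 kb. The 6 T cell genes had 9 peaks in 318 kb, or 2.83 per 100 kb, and Rag1 and Rag2 had 0 in 64.8 kb. Over the merged windows of all protein-coding genes the density was 0.959 per 100 kb. Both groups of surface protein genes were thus above the density over all genes, with the shared genes higher. H3K4me1 covered 57.9% of the windows of the shared genes, 23.9% of those of the T cell genes and 11.5% of the Rag windows, against 7.86% over all protein-coding genes. The order of the groups was the same for both. Within the T cell group the range was wide, from 9.77% for Cd6 to 44.7% for Cd3d, and Cd3d and Cd3g came close to Thy1. With 2 genes in the shared group, this order rests on Cd2 and Thy1 alone. Of their 8 peaks, 5 were in the Cd2 window and another lay at the Usp2 start. With 5 kb on either side, Thy1 had 0 peaks. Among the 9 peaks of the T cell genes, 5 were in the Cd28 window, the most distant of them only through the non-coding transcript. The Cd5 peak lay nearer to the Vps37c start. The density of the T cell group thus rests largely on Cd28.

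**Figure D3:**
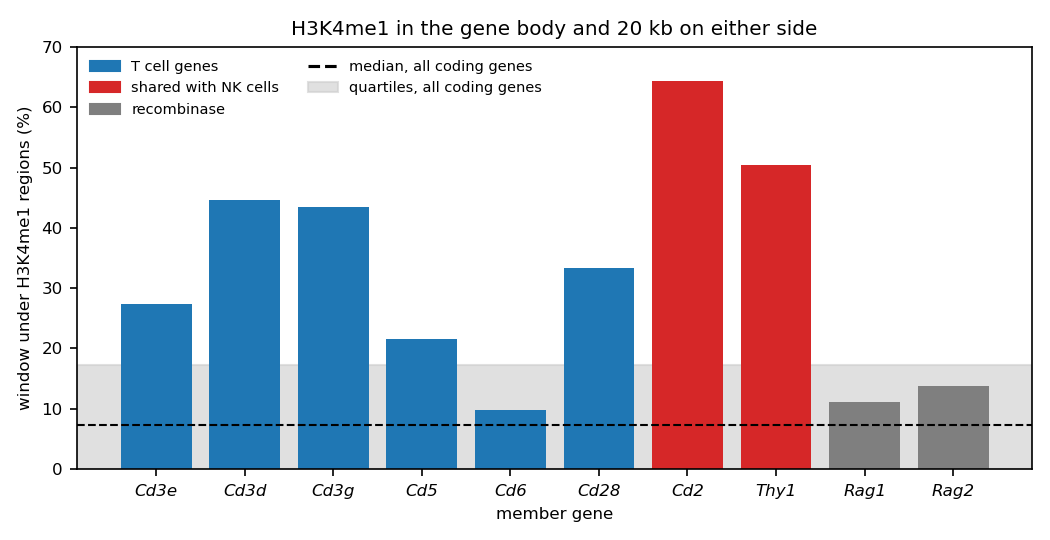
Percent of the gene body and 20 kb on either side that H3K4me1 regions cover, 1 bar per gene, coloured by group; the dashed line is the median over all coding genes (7.38%) and the grey band runs from the lower to the upper quartile (0 to 17.3%). Cd6, Rag1 and Rag2 lie within the band and the other 7 genes above it.

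Every one of the 17 Runx3 peaks overlapped an H3K4me1 region, against 95.7% of all peaks, and 15 of 17 had their midpoint inside one, against 83.6%. These shares were near those over all peaks. In the other direction, 12 of the 43 H3K4me1 regions (27.9%) held a Runx3 peak, against 28.6% of all regions. The peaks were of usual width, with a median of 830 bp (range 683 to 2295 bp) against 825 bp over all peaks. The H3K4me1 regions had a median width of 1867 bp (range 919 to 14442 bp) against 1801 bp. From the nearest start among the 10 genes, 2 peaks had their midpoint under 1 kb away, 3 at 1 to 5 kb and 12 farther away. These distances ignore the starts of other genes, so the peak 43 bp from the Usp2 start is among the 12. No share over all peaks is set beside these counts. For 15 of the 17 the nearest coding start belonged to one of the 10 genes, the exceptions being the peaks near Vps37c and Usp2.

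A RUNX consensus match was found in 17 of 17 peaks, against 93.3% of all 15524 peaks searched in the same way. Within the central 200 bp, 11 of 17 had a match, against 69.1% of all peaks. The share was thus near that over all peaks. TGTGGT was the most common of the 4 words, with 27 of the 42 matches, in 14 peaks, and 65.5% of all peaks held it. TGTGGC gave 10 matches, TGCGGT 3 and TGCGGC 2. Of the 42 matches, 19 lay within 100 bp of a midpoint. The widest peak, upstream of Cd2, held 9. Each position was counted once, and a match is a description of the letters, not a site.

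**Figure D4:**
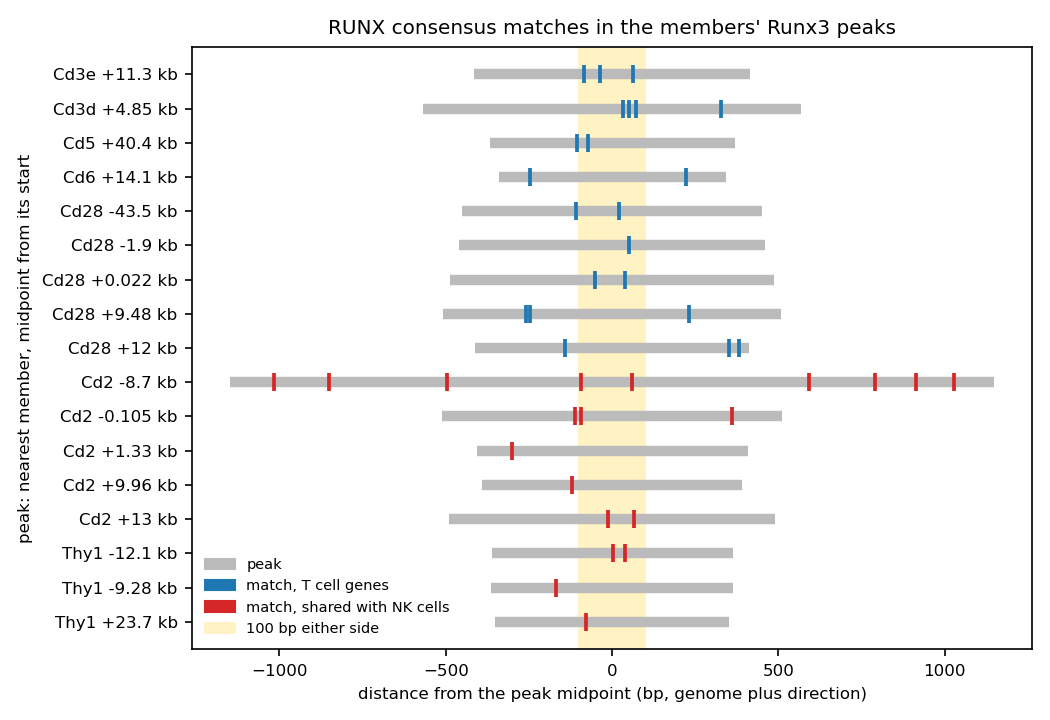
RUNX consensus matches (vertical ticks, blue for T cell genes and red for genes shared with NKC) in the 17 Runx3 peaks (grey bars to scale), against the distance from the peak midpoint in bp, with the central 100 bp either side shaded. Each peak is named by the nearest of the 10 genes and the distance of its midpoint from that gene's start; the Cd3e and Cd3d peaks each have 3 matches in the shaded part.

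Other sequence words were searched in the whole peaks, on both strands. The ETS words AGGAAGT and CGGAAGT were in 7 of 17 peaks against 41.8% of all peaks, and the E-box words CAGCTG and CAGGTG in 12 against 66.6%. AP-1 (TGAGTCA or TGACTCA) was in 3 against 16.5%, and AGATAA, the word for GATA factors, in 7 against 29.7%. T-box (GGTGTGA) was in 4 against 16.7% and TCF (CTTTGAA or CTTTGAT) in 5 against 25.4%. None of these words contains another. With only 17 peaks, no difference from the shares over all peaks is read from these counts.

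The signalling genes that act with the CD3 complex were read in the same way. Of 22 such genes, 20 had a Runx3 peak in the window, against 51.0% of all genes, with a median of 3.5 peaks against 1 over all genes. H3K4me1 covered the start of 18 of the 22, against 34.4% of all genes. Cd247, the zeta chain itself, had 8 peaks and 48.1% of its window under H3K4me1. The Src family kinase gene Fyn had 15 peaks, the most of the list, and the CD45 phosphatase gene Ptprc had 9. These counts are not set per length of window. The windows of Fyn, Ptprc and Cd247 were 237, 152 and 129 kb long, against a median of 55.4 kb over all genes. Only Trat1 and Ctla4 had 0. Many of these genes, Fyn, Ptprc, Vav1 and Lcp2 among them, also act in NKC receptor signalling. The median share of the window under H3K4me1 was 37.6%, against 30.3% for the 10 genes described here and 7.38% over all genes.

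Marker genes of NKC and of other cells a spleen sort could hold were read in the same windows, for which 51.0% of all genes had a Runx3 peak and the median over all genes was 1 peak. All 12 NKC markers had a Runx3 peak (3 to 12 each, median 6), most for Klrb1c with 12 and for Klrd1 and Tyrobp with 9 each, and H3K4me1 covered a median of 69.3% of their windows. Of 10 other T cell genes 5 had a peak, near the share over all genes, and the defining co-receptor genes Cd4, Cd8a and Cd8b1 had 0, as had Foxp3 and Il7r. Cd8a and Cd8b1 had 0 H3K4me1 regions as well. The other 8 of these 10 genes had at least 1 such region, against 74.0% of all genes. Over the 10, H3K4me1 covered a median of 17.8% of the window, against 7.38% over all genes. The T cell factor genes Tcf7 and Lef1, which NKC use too, had 7 and 6 peaks, followed by Zbtb7b and Bcl11b with 2 each. Of 10 B cell markers 8 had a peak, as many as of the 10 genes described here (0 to 3 each, most for Cd79a with 3 and Pax5 with 2, and 0 for Cd79b and Ms4a1), with a median of 7.2% of the window under H3K4me1. Of 10 myeloid markers 5 had one, again near the share over all genes (0 to 8 each, most for Itgam with 8, which NKC also make, and Cd68 with 3, and 0 for Lyz2, S100a8, Emr1, Cebpa and Ly6g), with a median of 6.71%. The part of other cells in the values of the 10 genes was not tested, and a region on the list does not tell how many of the cells carried it.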

How the data were processed

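The authors sequenced 40 bp reads, aligned them to mm9 with ELAND (CASAVA 1.7 in the submitters' processing notes), kept unique alignments and called regions with MACS on the joined reads of their repeats, with the NIS library as control and the larger data set scaled to the smaller. The deposited values are start and end positions of 2 lists, with no score, count or p-value. The Runx3 list has 15524 rows, the number of regions that the paper reports for resting NKC from its joined repeats. For H3K4me1 the text of the paper gives no such number, so the same match could not be made. Reads in repeated sequence were lost to the unique-alignment rule, which can leave gaps in regions.

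Positions are 1-based. Gene bodies were the union of all transcripts in GENCODE vM1 on NCBIM37 (mm9), on the 20 chromosomes of the lists. A row counted for a gene if it shared at least 1 bp with the body or 20 kb on either side. Python 3.11.15 and SciPy 1.17.1 were used, and overlap counting was tested on simulated data. No test was made. The 10 genes and the gene lists were chosen with earlier results of these data known. All 10 genes were named, and from each list of 8 or more genes those with 0 peaks and the 3 with the most, except for 1 item that is not reported here. Of 7 T cell receptor constant genes, 2 had no match in the annotation. Alternative windows, overlap rules, region widths and backgrounds were tried.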

Additional observations from a re-analysis of the deposited data

How the results depend on the processing

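Of 59 recomputed values, 35 stayed close to the reported one (a count within 1.5 times, a share within its interval) and 24 moved. The counts of genes with an H3K4me1 region and of peaks overlapping H3K4me1 stayed within 1.5 times under every alternative run, as did that of the signalling genes with a peak. With 5 kb on either side, 5 of the 10 genes had a Runx3 peak (lost by Cd3g, Cd5 and Thy1), with 11 peaks and 27 H3K4me1 regions, and the shares over all genes were 39.8% and 67.7%. In gene bodies alone, 4 genes had 9 peaks and 19 regions, against 33.6% and 63.3%. With 50 kb there were 72 regions, the shares rose to 62.6% and 79.7%, and Rag1 and Rag2 still had 0 peaks. Rows wider than the median of their list left 5 genes (lost by Cd5, Cd6 and Thy1), 9 peaks and 26 regions, against 35.1% and 62.4%. Genes within the range of body length of the 10 gave 58.3% and 82.4%, and genes of any biotype 40.7% and 63.1%. RUNX matches were in 11 of 17 peaks when only the central 200 bp were searched. With the start set at the outermost transcript of any kind, an alternative chosen after seeing the data, 1 gene (Cd2) and not 2 had a peak within 1 kb of its start, since the non-coding Cd28 transcript starts 29.6 kb upstream. No paired analysis was possible because each antibody has 1 sample and no test was made. Depth at each region is unknown, so an absent region may be one below the calling threshold.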

Other observations

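The genes that encode the constant parts of the T cell receptor itself, the chains that CD3 accompanies, were read where they matched the annotation, which was so for 5 of 7. All 5 had a Runx3 peak in the window, against 51.0% of protein-coding genes and 40.7% of genes of any biotype. Trac, of the alpha chain, had 5 peaks and 50.2% of its window under H3K4me1. Trbc1 and Trbc2, of the beta chain, had 2 peaks each, with 72.5% and 68.5% of the window under H3K4me1. Trgc1 and Trgc2, of the gamma chain, which were matched through older symbols to the annotation's Gm17004 and Gm16603, had 1 each, with 11.6% for both. None had a peak within 1 kb of its annotated 5′ end, which was not checked as a place where transcription starts. These genes lie close to near-identical copies or to each other, so that windows share regions and uniquely aligned reads can be sparse.

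Among ligands of the described receptors, Cd48, which binds Cd2 and is also made by lymphocytes, had 2 peaks and 38.4% of its window under H3K4me1. Cd86 had 1 peak and 13.5%, while Alcam and Cd80 had 0 peaks, with 4.22% and 10.9%. Of 8 genes that act with Rag1 and Rag2 in recombination or in the joining of DNA ends, 5 had a peak, against 51.0% of all genes. Dclre1c had the most with 2, and Prkdc, Xrcc4, Xrcc6 and Lig4 had 1 each. Dntt, the terminal transferase of lymphocyte precursors, had 0, as had the general end-joining genes Xrcc5 and Nhej1. The median share of their windows under H3K4me1 was 5.05%, against 7.38% over all genes.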
